A study of Mus musculus with 20 samples.

Results

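The 38 genes described here encode complement and coagulation factors, most of them secreted by hepatocytes. They were taken by symbol from a table of 50559 genes, and all 38 were present and passed the filter on low counts in every comparison. By role, 17 belong to complement and 21 to coagulation and fibrinolysis. Total RNA from whole liver was sequenced for 20 mice, all homozygous for a floxed *Cideb* allele and kept on a C57BL/6 background. Each mouse received an adeno-associated virus in which the TBG promoter, active in hepatocytes, drives GFP (called WT) or Cre (called KO, since *Cideb* is then deleted in hepatocytes and kept in the other liver cells). Mice were fed a Western diet rich in fat, sugar and cholesterol (WD) or CDA-HFD, a high-fat diet that lacks choline and supplies defined amino acids and is used to cause steatohepatitis with fibrosis, and 5 livers were measured in each of the 4 groups. The labels give a feeding time of 3 months for both diets, whereas the results text and figure legends of the study give a longer one for WD. Differences between the diets therefore cannot be told apart from feeding time, and neither the age nor the sex of these mice is given by the labels. *Cideb* encodes a lipid droplet protein that promotes the growth of droplets.

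Complement is a cascade of plasma proteins that tags and lyses microbes and injured cells. Mannose-binding lectins and C4 start it, C3 is its central component, and C5 to C9 assemble the membrane attack complex. Coagulation is a second cascade of plasma zymogens, which ends in thrombin cutting fibrinogen into fibrin, and plasmin dissolves the clot. Hepatocytes make most of the circulating factors of both systems, so the levels of these messages are a classical readout of hepatocyte synthesis, and several of them are acute-phase genes that rise in inflammation.

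Reads counted on genes ranged from 11697049 to 16827147 per liver. *Cideb* lay between 2.22 and 7.56 CPM, the counts scaled to a fixed library total, in WT livers and between 0 and 0.398 CPM in KO livers, with no overlap. Values per liver are CPM after TMM scaling of the libraries, and fold changes come from edgeR fits over all genes with a threshold of 0.05 on the adjusted p. Group means of the 14 hepatocyte markers found in the table were at least 193 CPM, and those of albumin (*Alb*) at least 37066 CPM. The liver labelled KO 5 on CDA-HFD stood apart from the other 4 of its group. Its *Cideb* level was 0.0598 CPM, in the range of the other KO livers, but it had the lowest value of its group for 36 of the 38 members. It fell within the range of the WT livers for 33 of them, against 0 to 17 in the other KO livers on that diet. Results on KO livers on CDA-HFD are therefore also given without it. This liver was singled out by its values in the members themselves. Leaving it out therefore favours higher KO values and gives no separate support. Among WT livers on CDA-HFD, livers 2 and 4 were among the 2 highest for 36 and 37 members, and liver 1 was the lowest for 30.

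The following start regions belong to the member with the largest change by diet and to 2 pairs of neighbouring genes that moved apart between the diets, as described further down. *C8a* and *C8b* lie 11130 bp apart on chromosome 4, on opposite strands. *F11* and *Klkb1* lie 4657 bp apart on chromosome 8, on the same strand. Each sequence is a RefSeq region of the GRCm38.p6 build from 250 bases before to 50 bases after the start of the gene, written 5′ to 3′ on its own strand. The positions are chr19:30232678-30232977 on the plus strand for *Mbl2*, chr4:104766067-104766366 on the plus strand for *C8b* and chr4:104876349-104876648 on the minus strand for *C8a*. They are chr8:45261982-45262281 for *F11* and chr8:45294786-45295085 for *Klkb1*, both on the minus strand. Capitals mark matches, on either strand, to the motifs named in the next paragraph.
Mbl2: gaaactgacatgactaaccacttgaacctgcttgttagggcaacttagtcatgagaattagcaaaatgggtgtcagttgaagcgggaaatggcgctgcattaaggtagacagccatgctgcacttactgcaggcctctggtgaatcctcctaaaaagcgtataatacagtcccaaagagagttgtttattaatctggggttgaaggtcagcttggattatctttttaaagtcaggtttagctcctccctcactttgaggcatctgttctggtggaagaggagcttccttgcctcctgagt
C8b: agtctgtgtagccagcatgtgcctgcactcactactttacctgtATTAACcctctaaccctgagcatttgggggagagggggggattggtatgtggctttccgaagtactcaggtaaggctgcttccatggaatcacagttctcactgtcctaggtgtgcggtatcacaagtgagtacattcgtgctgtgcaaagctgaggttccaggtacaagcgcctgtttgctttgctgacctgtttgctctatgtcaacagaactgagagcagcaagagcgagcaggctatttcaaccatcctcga
C8a: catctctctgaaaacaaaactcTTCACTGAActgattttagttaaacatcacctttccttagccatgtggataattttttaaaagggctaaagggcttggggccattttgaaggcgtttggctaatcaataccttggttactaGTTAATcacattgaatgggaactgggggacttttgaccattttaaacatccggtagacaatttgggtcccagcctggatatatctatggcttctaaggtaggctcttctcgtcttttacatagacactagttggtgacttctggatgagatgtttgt
F11: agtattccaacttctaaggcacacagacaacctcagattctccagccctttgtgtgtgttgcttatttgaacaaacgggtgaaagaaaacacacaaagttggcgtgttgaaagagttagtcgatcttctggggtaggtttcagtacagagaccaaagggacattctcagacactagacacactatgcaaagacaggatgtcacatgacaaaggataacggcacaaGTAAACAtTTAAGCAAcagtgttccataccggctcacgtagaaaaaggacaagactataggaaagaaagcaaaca
Klkb1: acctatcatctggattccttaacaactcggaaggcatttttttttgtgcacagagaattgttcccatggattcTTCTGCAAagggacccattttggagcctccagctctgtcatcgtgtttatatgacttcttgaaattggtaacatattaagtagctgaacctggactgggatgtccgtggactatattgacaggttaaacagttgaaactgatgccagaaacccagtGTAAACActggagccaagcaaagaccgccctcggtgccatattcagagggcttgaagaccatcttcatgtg

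The motifs searched were GTTAAT (part of the site of HNF1), CAAAGTCC (HNF4), TTGCNNAA (C/EBP), TGTTTAC (FOXA), TTCNNNGAA (STAT) and CTGGGAA (a response element to IL-6). These factors are known regulators of hepatocyte genes and of the acute-phase response. Start regions were found for 30 of the 38 members. GTTAAT was present in 9 of the 30 (30.0%), among them *C8a*, *C8b*, *Fga*, *Fgb* and *F2*, against 7.20% of 27025 start regions of all genes. TTGCNNAA was present in 10 of the 30 (33.3%), against 10.8% of all start regions. TTCNNNGAA was present in 7 (23.3% against 8.47%) and CTGGGAA in 6 of the 30, against 11.1%. TGTTTAC was present in 2 (6.67% against 3.55%), which are the neighbours *F11* and *Klkb1*, and CAAAGTCC in 0 (against 1.44%). The *Mbl2* region held none of the 6 motifs. Both CTGGGAA and TTCNNNGAA hold GAA, so their matches can overlap. A match is a description of the letters and was not tested further.

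Per length, the members spanned a wide range. In WT livers on WD the mean was highest for *C3*, at 1225 ± 231 CPM per kilobase of exon (RPKM; SD, n = 5). The 3 fibrinogen chains *Fga*, *Fgg* and *Fgb* followed at 910 ± 195, 797 ± 161 and 530 ± 91.8 RPKM, and vitronectin (*Vtn*) was at 529 ± 55.4 RPKM, which does not differ from *Fgb* beyond that spread. Plasminogen (*Plg*) was at 425 ± 60.8 RPKM and prothrombin (*F2*) at 280 ± 24.9 RPKM. The lowest means were those of *C8b* (20.9 ± 6.61 RPKM), *Masp1* (18.5 ± 1.22 RPKM) and *F11* (18.3 ± 2.36 RPKM), and these do not differ beyond their spread. *C8a*, the neighbour of *C8b*, was at 141 ± 28.5 RPKM, and *Klkb1*, the neighbour of *F11*, at 56.1 ± 12.2 RPKM. For 5 members, exons of another gene covered between 11.3% and 79.5% of the exonic bases, in the order *Plg*, *Serpinc1*, *Klkb1*, *Masp2* and *Cfb*. For *Cfb* and *Klkb1* the other gene lies on the same strand, and for the others the sources used here do not say if reads were assigned by strand, so the values of all 5 are uncertain.

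**Figure D1:**
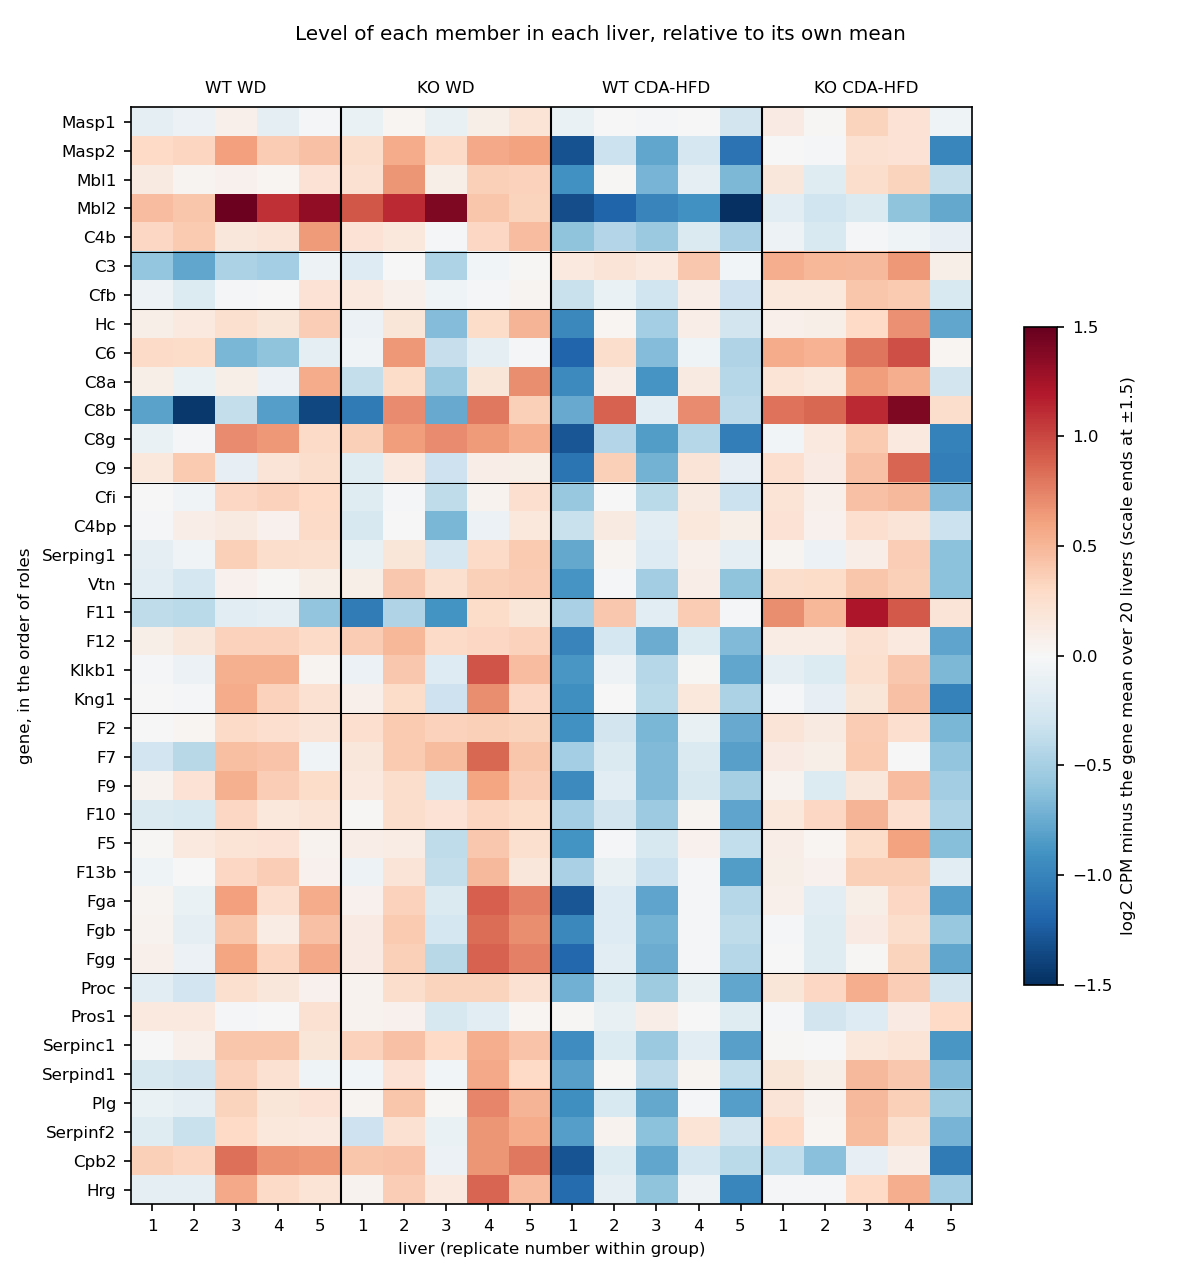
Each row is a member and each column a liver. Colour gives log2 CPM minus the mean of that gene over the 20 livers, with the colour scale ending at 1.5 in either direction, and black lines separate the groups and the roles. WT livers 1, 3 and 5 and KO liver 5 on CDA-HFD are blue for most members, and *C3*, *C8b* and *F11* run against the other genes on WD.

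Under TMM scaling, WT livers held less of most members on CDA-HFD than on WD. Scaling on hepatocyte markers shifted all genes up and turned the sign of the members' median, which stayed below that of all genes. Of the 38 members, 23 fell (60.5%, against 25.2% of the 16726 genes tested) and 2 rose (against 25.9%). Among the 3794 genes at least as abundant as the lowest member, 1742 fell and 612 rose. The median log2 fold change of the members was -0.48, against -0.21 over the 3794 genes at least as abundant as the lowest member. The most negative values were those of *Mbl2*, *Cpb2*, *Masp2* and *C8g*, with log2 fold changes of -2.32, -1.12, -1.12 and -1.11. The rises were those of *C3* and *C8b*. For 10 members every WT liver on CDA-HFD was below every WT liver on WD (17.8% of all genes did so), and for *C3* every one was above (19.3% of all genes). All 4 vitamin K-dependent procoagulants fell, as did 3 of 4 contact factors, 4 of 5 genes of the fibrinogen group, 4 of 5 of complement initiation and 3 of 4 of fibrinolysis. The counts were 2 of 4 for anticoagulants, 2 of 6 for terminal complement, 1 of 4 for complement inhibitors and 0 of 2 for *C3* and *Cfb*.

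The size of the fall depended on the scaling. A scaling factor moves all genes of a library together. The distance of the members from all genes is therefore nearly fixed by construction and is no separate result. TMM factors lay between 0.817 and 0.987 in WT livers on WD and between 1.10 and 1.31 in WT livers on CDA-HFD. Under TMM the median of the members was 0.48 below the median of all genes on the log2 scale. With library size only, the median of all genes was 0.42 and that of the members lay 0.50 below it. With that scaling 8 members fell (21.1%, against 9.39% of all genes) and 7 rose (18.4%, against 54.5%). With libraries scaled on the 14 hepatocyte markers, a setting chosen after seeing the data, the median of all genes was 0.67 and that of the members 0.13, a distance of 0.54. Under this hepatocyte-marker scaling 4 members fell (10.5%, against 4.12% of all genes), namely *Mbl2*, *Cpb2*, *Masp2* and *C8g*. Those that rose under it were 8 (21.1%, against 55.4%): *C3*, *C8b*, *F11*, *Cfb*, *C4bp*, *Masp1*, *Serpind1* and *Serpinf2*. Of the 14 hepatocyte markers 9 fell by diet in WT livers under TMM, against 25.2% of all genes. Without WT liver 4 on WD or WT liver 5 on CDA-HFD, 15 members fell under TMM, against 22.1% and 22.2% of all genes.

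As a plain share of reads on genes, the 38 members took 2.80% ± 0.254 in WT livers on WD and 3.18% ± 0.341 on CDA-HFD (SD, n = 5). Without *C3* the share went the other way, from 2.23% ± 0.157 to 2.005% ± 0.337 (SD, n = 5). The complement members took 1.34% ± 0.170 on WD and 1.93% ± 0.126 on CDA-HFD, and the coagulation members 1.46% ± 0.128 and 1.25% ± 0.238 (SD, n = 5). The shares were not tested.

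On CDA-HFD the members were higher on average in KO than in WT livers under TMM scaling, but few passed the test. Scaling on hepatocyte markers shifted all genes down by a median of 0.49 and turned the sign of the members' median, which stayed above that of all genes. All 38 log2 fold changes were above 0, with a median of 0.43, against 0.13 over the 3809 genes at least as abundant as the lowest member. Among those 3809 genes 628 rose and 250 fell. The members that rose were 3 of 38, a share near the background of 8.19% of the 17204 genes tested, and 0 fell (background 7.29%). They were *Proc*, *C6* and *Mbl2*, with log2 fold changes of 0.69 (SE 0.18, adjusted p = 0.0301), 0.94 (SE 0.26, adjusted p = 0.0357) and 0.90 (SE 0.25, adjusted p = 0.0382). In 1 member, *Mbl2*, every KO liver was above every WT liver, against 5.05% of all genes. An unadjusted p under 0.05 was found for 19 of 38, against 35.3% of all genes and 47.4% of those at least as abundant. DESeq2 called 12 members higher (31.6%, against 13% of all genes), and the fit over all 20 livers called 16 (42.1%, against 13.4%). Leaving out single livers changed these calls. Without WT liver 1 or 3, or without KO liver 1, 2, 3 or 4, 0 members rose, against 2.05% to 4.73% of all genes. Without WT liver 5, 1 rose (2.63%, against 2.53%), and without WT liver 4, 8 rose (21.1%, against 7.76%). Calls over all genes dropped in each of these fits, to between 709 and 2538 from 2664, also without WT liver 4, where more members passed. In these fits 37 or 38 of the 38 fold changes stayed above 0. Without WT liver 2 the share of members that rose stayed at 7.89%, against 6.11% of all genes. Without KO liver 5, 24 of the 38 members rose (63.2%, against 19.6% of 17411 genes), and the median was 0.58. These were all 4 vitamin K-dependent procoagulants, 5 of 6 terminal complement genes, 4 of 5 of complement initiation, 3 of 4 anticoagulants and 2 of 4 each of contact factors, complement inhibitors and fibrinolysis. Just *F13b* did so in the fibrinogen group and *Cfb* in the pair with *C3*. KO livers 1 to 4 lay above every WT liver for 20 members (52.6%, against 16.4% of all genes). Since KO liver 5 was set apart by its low values in these members, the counts without it are a description and no separate support.

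With libraries scaled on the hepatocyte markers, 0 of 38 members rose, but only 0.00581% of all genes did so. The median of the members was then -0.083 and that of all genes -0.49, so the members lay 0.41 above all genes, against 0.43 under TMM. This distance is nearly fixed under any scaling of the libraries. The number of members above 0 was 15. The mean log2 CPM of the members minus that of the hepatocyte markers was -2.14 ± 0.034 in WT livers and -2.19 ± 0.118 in KO livers on CDA-HFD (SD, n = 5). That difference was -2.29 ± 0.171 in WT and -2.28 ± 0.175 in KO livers on WD (SD, n = 5). In whole liver RNA, fewer hepatocytes and less of these messages per hepatocyte cannot be told apart. Under TMM, 3 of the 14 hepatocyte markers rose in KO livers on CDA-HFD, against 8.19% of all genes. The median log2 fold change of the 14 was 0.57.

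On WD no difference between KO and WT livers passed in these genes. Of the 38 members, 0 passed the edgeR test (0.0757% of 15848 genes passed) or DESeq2, and 4 (10.5%) had an unadjusted p under 0.05, against 10.7% of all genes. The median log2 fold change was 0.11, with 25 of 38 above 0, against 0.024 over genes at least as abundant. The smallest p values were those of *Vtn*, at a log2 fold change of 0.34 (SE 0.11, adjusted p = 0.302), and *C8b*, at a log2 fold change of 1.11 (SE 0.35, adjusted p = 0.319). For *Vtn* every KO liver was above every WT liver, which 1.14% of all genes also showed. The other members with an unadjusted p under 0.05 were *Mbl1* and *F7*, with log2 fold changes of 0.25 and 0.41.

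In KO livers fewer members passed between the diets. *F11* rose on CDA-HFD (1 of 38, against 9.19% of 16387 genes), *Mbl2* and *Cpb2* fell (2 of 38, against 7.85%), and the median of the members was -0.14. Over the 2840 genes at least as abundant as the lowest member the median was -0.13, close to that of the members, and 148 rose and 465 fell. For 4 members, *Mbl2*, *Masp2*, *F12* and *Serpinc1*, every KO liver on CDA-HFD was below every KO liver on WD (7.14% of all genes). Without KO liver 5 on CDA-HFD, 3 rose (7.89%, against 9.03% of all genes) and 5 fell (13.2%, against 8.37%). The median was then -0.037, against -0.0032 over all genes. With library size only, 7 rose (18.4%, against 20.6%) and 2 fell (5.26%, against 3.37%), and the median was 0.089, below the 0.25 of all genes. *F11* did not pass without KO liver 1 or 3 on WD or KO liver 3 on CDA-HFD, and *Cpb2* did not pass without KO liver 4 or 5 on WD or KO liver 2 on CDA-HFD. The diet comparisons use the same livers as the comparisons of KO with WT, so the 4 sets of values are not independent. The difference between the diets in the effect of KO, tested as an interaction over 20 livers, passed for 0 of 38 members by edgeR and by DESeq2 (0.556% of 17804 genes passed by edgeR). Its log2 value was above 0 for 36 of the 38. The median was 0.38, against 0.019 over all genes and 0.16 over the 3263 at least as abundant as the lowest member. An unadjusted p under 0.05 was found for 8 members (21.1%), against 15.4% of all genes and 26.4% of those at least as abundant. Without KO liver 5, 4 passed, all higher: *Cfi*, *F12*, *F2* and *Masp2* (against 6.17% of all genes).

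**Figure D2:**
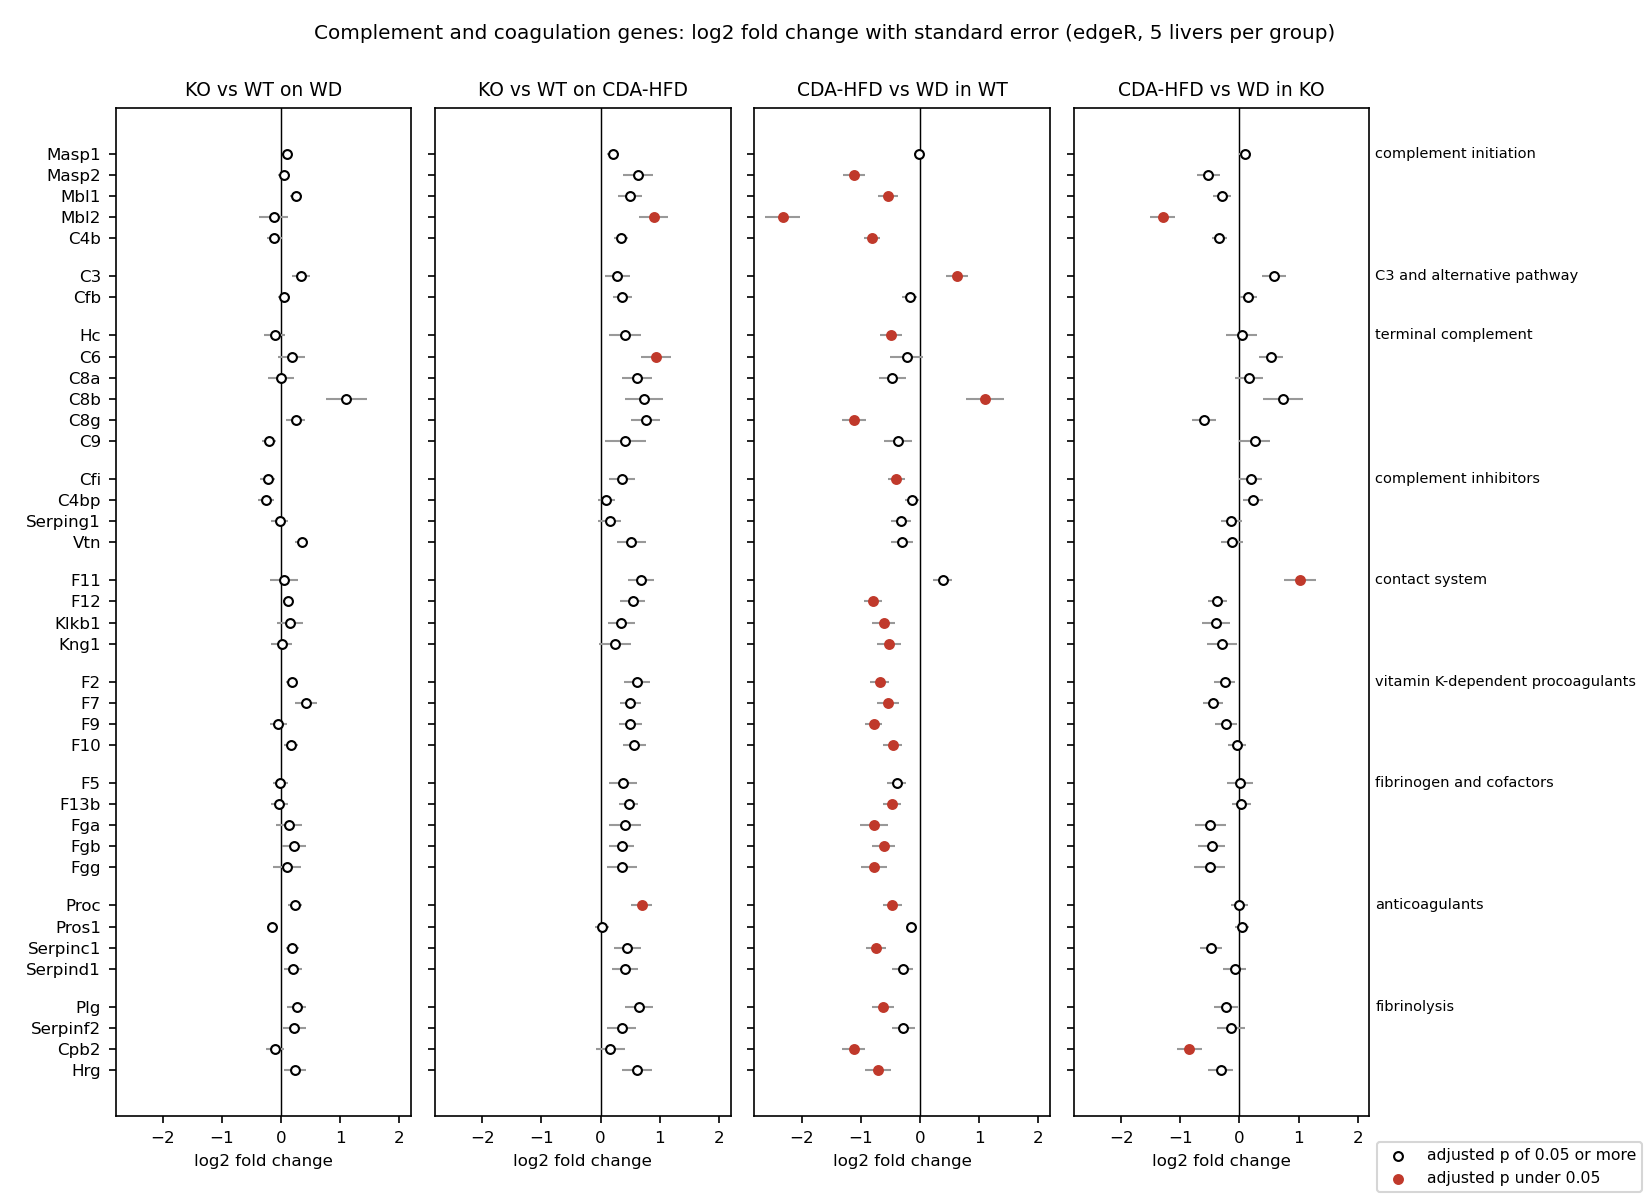
Log2 fold change of each member in 4 comparisons, grouped by role, with the standard error as bars. Filled red points passed the adjusted p of 0.05, which 3 did for KO against WT on CDA-HFD and 25 for CDA-HFD against WD in WT livers. In the second panel all 38 points lie to the right of 0 under TMM scaling, of which 15 do so with scaling on hepatocyte markers, where the median of all genes is -0.49.

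Complement initiation held the member with the largest change. *Mbl2* encodes mannose-binding lectin C, which binds sugars on microbes and starts the lectin pathway. *Mbl2* was at 128, 123, 256, 198 and 233 CPM in WT livers 1 to 5 on WD and at 176, 201, 244, 123 and 116 CPM in KO livers 1 to 5 on WD. On CDA-HFD *Mbl2* was at 36.8, 40.0, 46.6, 49.1 and 16.3 CPM in WT livers 1 to 5 and at 82.6, 75.3, 79.2, 60.7 and 54.1 CPM in KO livers 1 to 5. Every liver on CDA-HFD was below every liver on WD, and on CDA-HFD the KO livers were all above the WT livers. The log2 fold change by diet was -2.32 (SE 0.30, adjusted p = 9.24e-05) in WT livers and -1.30 (SE 0.21, adjusted p = 0.00235) in KO livers. Its rise in KO livers on CDA-HFD, 0.90, was 0.98 without KO liver 5. With scaling on hepatocyte markers it was 0.39 (adjusted p = 0.284), with all genes at a median of -0.49. The interaction was a log2 value of 1.02 (SE 0.38, adjusted p = 0.212). *Mbl1*, the other lectin, fell by diet in WT livers to 156 ± 43.7 CPM from 225 ± 12.7 CPM, at a log2 fold change of -0.54 (SE 0.16, adjusted p = 0.0166).

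*C4b* encodes complement C4, which both the classical and the lectin pathway cleave. *C4b* was at 1901, 2013, 1732, 1761 and 2395 CPM in WT livers 1 to 5 on WD and at 1788, 1719.9, 1504, 1905 and 2116 CPM in KO livers 1 to 5 on WD. On CDA-HFD *C4b* was at 1014, 1136, 1048, 1328 and 1102 CPM in WT livers 1 to 5 and at 1456, 1317, 1517, 1467 and 1410.2 CPM in KO livers 1 to 5. All WT livers on CDA-HFD were below all WT livers on WD, whereas in KO livers the diets overlapped. The log2 fold change by diet was -0.81 (SE 0.13, adjusted p = 0.000437) in WT livers and -0.34 (SE 0.13, adjusted p = 0.0934) in KO livers, and the interaction was a log2 value of 0.47 (SE 0.17, adjusted p = 0.203). With scaling on hepatocyte markers the log2 fold change by diet in WT livers was -0.18 (adjusted p = 0.411), with all genes at a median of 0.67. *C4b* has a close copy, *C4a*, whose reads could be shared with it. *C4a* itself went from 76.3 ± 12.6 CPM in WT livers on WD to 3.36 ± 1.37 CPM on CDA-HFD, a log2 fold change of -4.50 (SE 0.25, adjusted p = 1.07e-06). The proteases of the lectin pathway are encoded by *Masp1* and *Masp2*. *Masp2* fell by diet in WT livers, from 147 ± 13.5 CPM to 68.1 ± 21.5 CPM, at a log2 fold change of -1.12 (SE 0.19, adjusted p = 0.000493), whereas *Masp1* was at 182 ± 12.02 CPM and 179.9 ± 13.7 CPM. The difference between these genes was not tested.

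The central component *C3* had the highest level of all members per length. It rose by diet in WT livers from 6298 ± 1186 CPM to 9810.0 ± 1106 CPM, a log2 fold change of 0.63 (SE 0.18, adjusted p = 0.0133). In KO livers it was at 7939 ± 1013 CPM on WD and 11993 ± 1649 CPM on CDA-HFD (log2 fold change 0.59, SE 0.20, adjusted p = 0.0635), with no overlap between the diets. Its partner in the alternative pathway convertase is factor B, encoded by *Cfb*. *Cfb* was at 1004, 924, 1042, 1066 and 1229.8 CPM in WT livers 1 to 5 on WD and at 1177, 1121, 1016, 1037 and 1093 CPM in KO livers 1 to 5 on WD. On CDA-HFD *Cfb* was at 843, 988, 860.3, 1138 and 854 CPM in WT livers 1 to 5 and at 1186, 1186, 1417, 1389 and 905 CPM in KO livers 1 to 5. The groups overlapped in each comparison, and KO liver 5 on CDA-HFD was the lowest of its group. The log2 fold change of KO on CDA-HFD was 0.37 (SE 0.16, adjusted p = 0.117). It was -0.15 with scaling on hepatocyte markers, with all genes at a median of -0.49. Most exonic bases of *Cfb* (79.5%) are shared with the predicted gene *Gm20547* on the same strand.

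Of the terminal components, *C6* joins the membrane attack complex after C5b. *C6* was at 256, 255, 130.4, 139 and 189.9 CPM in WT livers 1 to 5 on WD and at 203, 331, 166, 189.5 and 208 CPM in KO livers 1 to 5 on WD. On CDA-HFD *C6* was at 91.8, 251.6, 134, 201 and 154 CPM in WT livers 1 to 5 and at 309, 302, 368, 410.0 and 215 CPM in KO livers 1 to 5. Liver 5 was the 1 KO liver on CDA-HFD inside the range of WT livers. The rise in KO livers, 0.94, became 1.05 without that liver, a choice that favours a larger value. By diet the log2 fold change of *C6* was -0.23 in WT livers (adjusted p = 0.510) and 0.54 in KO livers (adjusted p = 0.0900).

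*C8b* encodes the beta chain of C8, a part of the membrane attack complex that also holds an alpha and a gamma chain. *C8b* was at 57.1, 36.3, 77.8, 56.1 and 38.6 CPM in WT livers 1 to 5 on WD and at 47.8, 162, 58.9, 172 and 128 CPM in KO livers 1 to 5 on WD. On CDA-HFD *C8b* was at 58.8, 185, 88.9, 164 and 76.1 CPM in WT livers 1 to 5 and at 176, 181, 216, 263 and 119.9 CPM in KO livers 1 to 5. WT livers on WD had the lowest mean and overlapped with each other group but KO livers on CDA-HFD. By diet it rose in WT livers, at a log2 fold change of 1.10 (SE 0.32, adjusted p = 0.0131), and its value in KO livers was a log2 fold change of 0.74 (SE 0.34, adjusted p = 0.159). For KO on WD it was a log2 fold change of 1.11 (SE 0.35, adjusted p = 0.319), so the difference did not pass. The alpha and gamma chains are encoded by *C8a* and *C8g*. *C8a* was at 512 ± 104 CPM on WD and 371 ± 131 CPM on CDA-HFD (log2 fold change -0.47, SE 0.23, adjusted p = 0.106), and *C8g* fell from 184 ± 47.3 CPM to 85.4 ± 21.7 CPM (log2 fold change -1.11, SE 0.20, adjusted p = 0.000884). Of the other terminal genes, C5 (*Hc*) fell by diet in WT livers at a log2 fold change of -0.49 (SE 0.18, adjusted p = 0.0399), and *C9* was at a log2 fold change of -0.37 (SE 0.24, adjusted p = 0.221).

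Among the inhibitors, vitronectin (*Vtn*) blocks the insertion of the attack complex. *Vtn* was at 987, 925, 1158, 1125 and 1179 CPM in WT livers 1 to 5 on WD and at 1180.1, 1469, 1306, 1415 and 1441 CPM in KO livers 1 to 5 on WD. On CDA-HFD *Vtn* was at 599, 1092, 769.5, 1185 and 731 CPM in WT livers 1 to 5 and at 1331, 1344, 1482, 1418 and 720.4 CPM in KO livers 1 to 5. On WD the highest WT liver and the lowest KO liver were almost level, although the groups did not overlap. On CDA-HFD, KO livers 1 to 4 were above all WT livers and KO liver 5 was between WT livers 1 and 5. The log2 fold change there was 0.52 (SE 0.24, adjusted p = 0.150). It was 0.67 without KO liver 5, a choice that favours a larger value. *Cfi*, the protease that inactivates C3b, fell by diet in WT livers (log2 fold change -0.40, SE 0.15, adjusted p = 0.0410). *C4bp* and C1 inhibitor (*Serping1*) did not pass in any comparison, with log2 fold changes from -0.26 to 0.23 and from -0.32 to 0.15.

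The contact system starts the intrinsic pathway of coagulation and releases bradykinin. Factor XI, encoded by *F11*, was its member with the smallest p for KO on CDA-HFD. *F11* was at 39.3, 38.8, 45.6, 47.0 and 34.1 CPM in WT livers 1 to 5 on WD and at 24.7, 37.4, 27.5, 62.3 and 58.2 CPM in KO livers 1 to 5 on WD. On CDA-HFD *F11* was at 36.6, 67.9, 46.1, 66.9 and 50.2 CPM in WT livers 1 to 5 and at 83.2, 72.8, 119, 97.6 and 58.9 CPM in KO livers 1 to 5. KO livers on CDA-HFD had the highest mean, KO livers 1 and 3 on WD were the lowest of all, and the diets overlapped in both genotypes. *F11* rose by diet in KO livers at a log2 fold change of 1.03 (SE 0.27, adjusted p = 0.0269), and was at a log2 fold change of 0.38 (SE 0.16, adjusted p = 0.0706) in WT livers and 0.68 (SE 0.21, adjusted p = 0.0523) for KO on CDA-HFD. The other contact genes fell by diet in WT livers, with log2 fold changes of *F12* at -0.80, prekallikrein (*Klkb1*) at -0.62 and kininogen (*Kng1*) at -0.53 (adjusted p = 0.000951, 0.0214 and 0.0452). Kininogen has a close copy, *Kng2*, so its counts are uncertain.

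The vitamin K-dependent procoagulants are the zymogens that lead to thrombin. All 4 fell by diet in WT livers under TMM scaling, with log2 fold changes of -0.68 for *F2*, -0.54 for *F7*, -0.78 for *F9* and -0.46 for *F10* (adjusted p from 0.00105 to 0.0326). With scaling on hepatocyte markers 0 of 4 fell, against 4.12% of all genes, whose median was then 0.67. For KO on CDA-HFD their log2 fold changes were between 0.50 and 0.61, and none passed with 5 KO livers. Factor X, encoded by *F10*, converts prothrombin to thrombin. *F10* was at 194, 192, 279, 251 and 259.9 CPM in WT livers 1 to 5 on WD and at 227, 271, 261, 281 and 272 CPM in KO livers 1 to 5 on WD. On CDA-HFD *F10* was at 158, 187, 154, 231 and 129.8 CPM in WT livers 1 to 5 and at 251.7, 279, 322, 267 and 163 CPM in KO livers 1 to 5. On CDA-HFD, KO livers 1 to 4 were above all WT livers and KO liver 5 was inside their range. The log2 fold change was 0.57 (SE 0.20, adjusted p = 0.0668). It was 0.70 without KO liver 5, a choice that favours a larger value. Scaling on hepatocyte markers gave 0.04 (adjusted p = 0.837), with all genes at a median of -0.49.

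The fibrinogen chains *Fga*, *Fgb* and *Fgg* fell by diet in WT livers under TMM scaling, with log2 fold changes of -0.78, -0.61 and -0.78. They did not fall with scaling on hepatocyte markers, where 4.12% of all genes did and the median of all genes was 0.67. Under TMM their log2 fold changes were -0.49, -0.47 and -0.50 in KO livers, where none passed. *F13b* encodes the carrier subunit of factor XIII, which cross-links fibrin. *F13b* was at 159, 165, 206, 214 and 173 CPM in WT livers 1 to 5 on WD and at 157, 190.2, 129.9, 232 and 187 CPM in KO livers 1 to 5 on WD. On CDA-HFD *F13b* was at 119, 153, 133, 164 and 92.7 CPM in WT livers 1 to 5 and at 177, 173, 213, 212 and 149 CPM in KO livers 1 to 5. WT livers on CDA-HFD had the lowest mean, and liver 5 was the lowest of each genotype on that diet. The log2 fold changes were -0.48 (SE 0.15, adjusted p = 0.0200) by diet in WT livers and 0.47 (SE 0.16, adjusted p = 0.0666) for KO on CDA-HFD. The latter was -0.022 with scaling on hepatocyte markers, with all genes at a median of -0.49. *F5*, the cofactor of factor X, passed in no comparison (log2 fold change -0.39 by diet in WT livers).

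*Proc* encodes protein C, which inactivates factors V and VIII, and had the smallest p of all members for KO on CDA-HFD. *Proc* was at 255, 234, 337, 321 and 298 CPM in WT livers 1 to 5 on WD and at 296, 342, 361, 361 and 335 CPM in KO livers 1 to 5 on WD. On CDA-HFD *Proc* was at 173, 248, 197, 266 and 166 CPM in WT livers 1 to 5 and at 325, 355, 419, 371 and 236 CPM in KO livers 1 to 5. On CDA-HFD, KO livers 1 to 4 lay above every WT liver, and KO liver 5 was below WT livers 2 and 4. *Proc* fell by diet in WT livers at a log2 fold change of -0.47 (SE 0.15, adjusted p = 0.0243), and was at a log2 fold change of 0.00 (SE 0.14, adjusted p = 1.00) in KO livers. For KO on CDA-HFD the log2 fold change was 0.80 without KO liver 5, a choice that favours a larger value. With scaling on hepatocyte markers it was 0.18 (adjusted p = 0.317), with all genes at a median of -0.49. Antithrombin (*Serpinc1*) fell by diet in WT livers, from 1204 ± 161 CPM to 725 ± 171 CPM (log2 fold change -0.74, SE 0.17, adjusted p = 0.00350). Protein S (*Pros1*), which endothelial cells also make, passed in no comparison, with means from 102 ± 9.40 CPM in KO livers on WD to 113 ± 8.20 CPM in WT livers on WD.

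Plasminogen, encoded by *Plg*, is the precursor of plasmin. *Plg* was at 1362, 1325, 1845, 1659.8 and 1701 CPM in WT livers 1 to 5 on WD and at 1504, 1945, 1478, 2428 and 2073 CPM in KO livers 1 to 5 on WD. On CDA-HFD *Plg* was at 769, 1247, 855, 1437 and 824 CPM in WT livers 1 to 5 and at 1666, 1519, 2044, 1874 and 1010.1 CPM in KO livers 1 to 5. The groups overlapped in every comparison. The log2 fold change by diet was -0.63 (SE 0.19, adjusted p = 0.0175) in WT livers. That of KO on CDA-HFD was 0.65 (SE 0.24, adjusted p = 0.0800), or 0.79 without KO liver 5, a choice that favours a larger value. *Cpb2* encodes TAFI, a carboxypeptidase that slows fibrinolysis. *Cpb2* was at 187, 183, 258, 233 and 229 CPM in WT livers 1 to 5 on WD and at 195, 196, 137, 231 and 251 CPM in KO livers 1 to 5 on WD. On CDA-HFD *Cpb2* was at 59.3, 126, 84.7, 121 and 110.4 CPM in WT livers 1 to 5 and at 112, 94.1, 134, 156 and 69.8 CPM in KO livers 1 to 5. In WT livers every value on CDA-HFD was below every value on WD, and in KO livers the diets overlapped slightly. It fell by diet at a log2 fold change of -1.12 (SE 0.19, adjusted p = 0.000550) in WT livers and -0.84 (SE 0.21, adjusted p = 0.0217) in KO livers, and its difference between KO and WT livers on CDA-HFD was a log2 fold change of 0.16 (SE 0.24, adjusted p = 0.655). Histidine-rich glycoprotein (*Hrg*), which binds plasminogen and heparin, fell by diet in WT livers at a log2 fold change of -0.71 (SE 0.22, adjusted p = 0.0203). Antiplasmin (*Serpinf2*), the inhibitor of plasmin, was at a log2 fold change of -0.28 (SE 0.20, adjusted p = 0.256), and heparin cofactor II (*Serpind1*), an inhibitor of thrombin, at a log2 fold change of -0.29 (SE 0.18, adjusted p = 0.189) in the same comparison. For KO on CDA-HFD the log2 fold changes of these genes were 0.62, 0.36 and 0.41, and none passed. Exact two-sided permutation tests of the 12 members with values in every liver, in 4 comparisons, gave no adjusted p under 0.05 over the 48 tests. Their smallest p, 0.00794, is the lowest that 5 livers against 5 allow, and it was reached by *Mbl2* in 3 comparisons, by *C4b* and *Cpb2* for diet in WT livers and by *Vtn* for KO on WD.

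**Figure D3:**
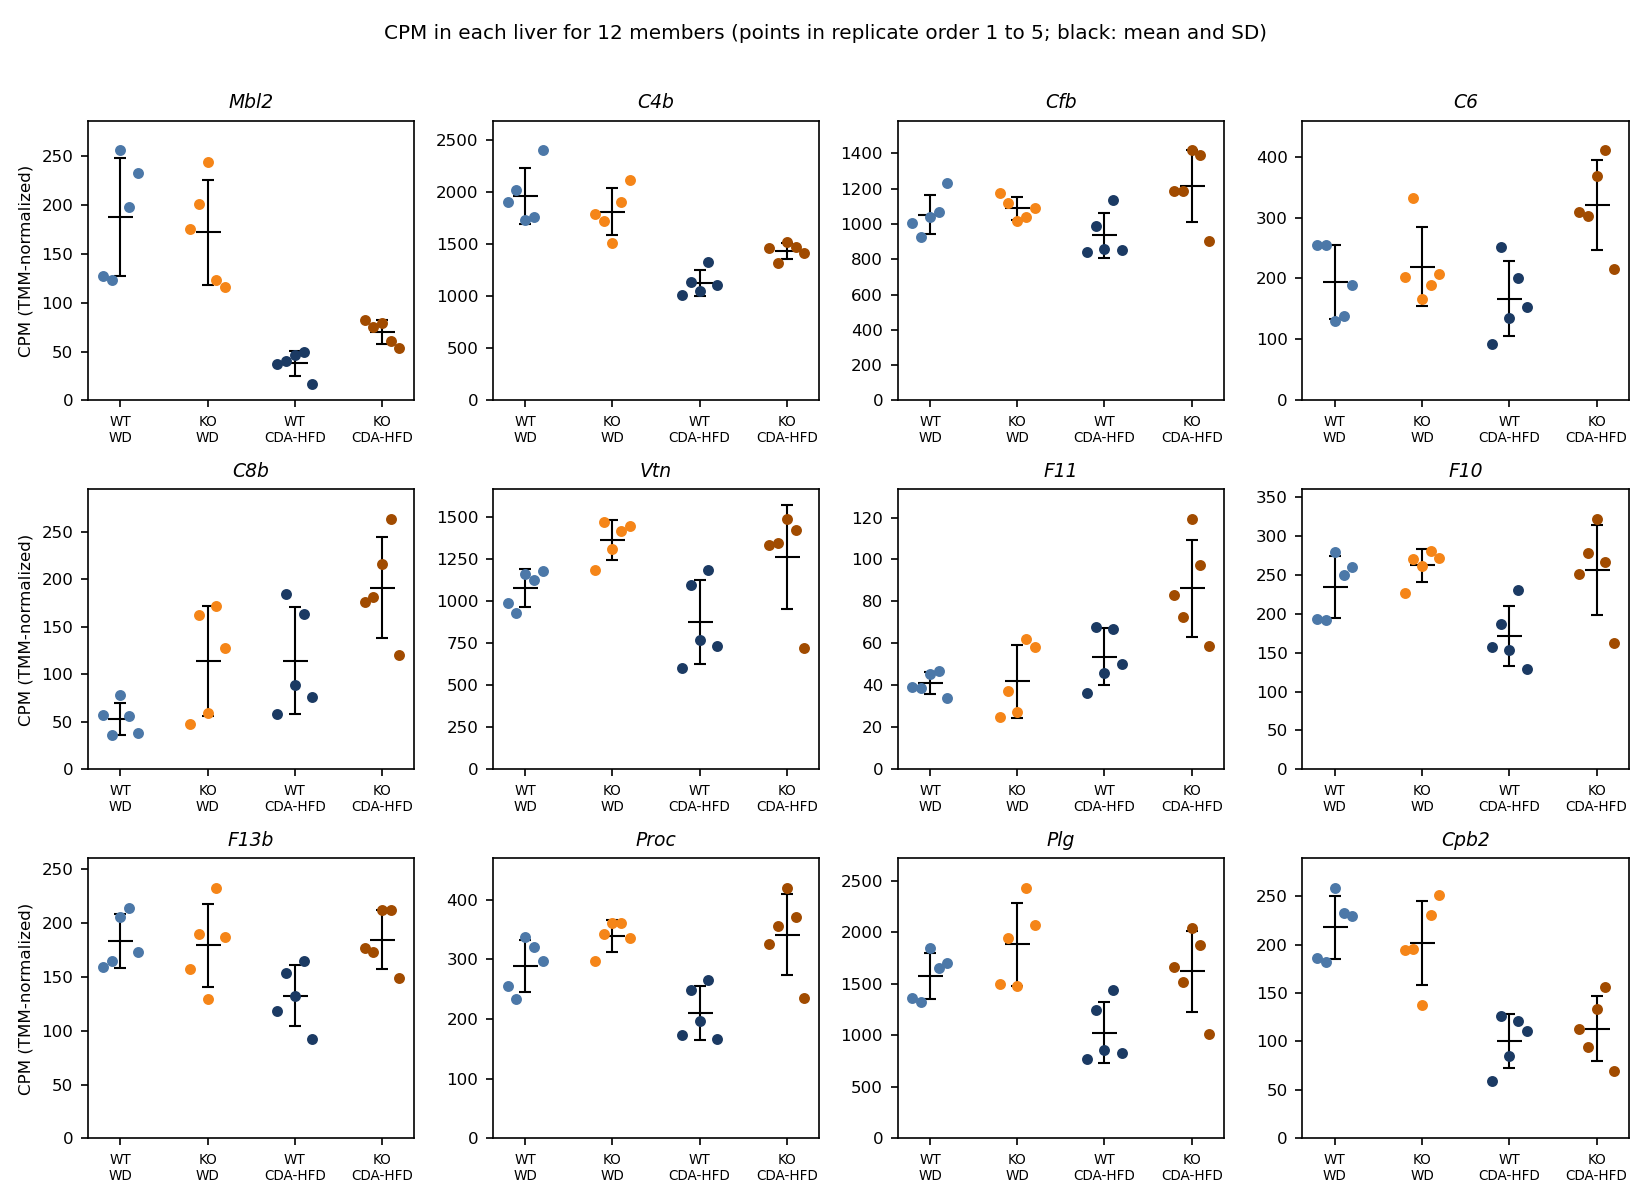
CPM of 12 members in each liver, 1 panel per gene with its own axis from 0, points in replicate order and black bars for mean and SD of 5 livers. In the *Mbl2* panel both CDA-HFD groups lie below both WD groups. In most other panels the KO liver 5 on CDA-HFD, the last point on the right, is the lowest of its group.

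Ratios of 2 genes within a liver do not depend on scaling. They were computed for the 7 pairs of members within 100000 bp of each other and for the other pairs of C8 chains, 9 pairs in all, a choice made after the log2 fold changes were known. Exact two-sided permutation tests were adjusted over the 36 tests, of which 12 passed 0.05. The ratio of *C8a* to *C8b* was 8.68, 12.03, 6.40, 7.85 and 17.9 in WT livers 1 to 5 on WD and 4.11, 2.71, 2.84, 3.13 and 4.56 on CDA-HFD. The groups did not overlap, and the difference in mean log2 ratio was -1.54 (exact permutation, adjusted p = 0.0408). In KO livers 1 to 5 the ratio was 7.64, 3.48, 5.39, 3.08 and 5.96 on WD and 3.07, 2.90, 3.33, 2.59 and 3.22 on CDA-HFD, a log2 difference of -0.68 (exact permutation, adjusted p = 0.0672). On WD the ratio was lower in KO than in WT livers by a log2 difference of -1.03 (exact permutation, adjusted p = 0.0476). *C8b* relative to *C8g* was higher on CDA-HFD than on WD, with log2 differences of 2.13 in WT and 1.54 in KO livers and no overlap (exact permutation, adjusted p = 0.0408 for each).

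The ratio of *F11* to its neighbour *Klkb1* was 0.159, 0.164, 0.125, 0.129 and 0.131 in WT livers 1 to 5 on WD and 0.266, 0.285, 0.247, 0.262 and 0.342 on CDA-HFD. In KO livers 1 to 5 it was 0.104, 0.113, 0.124, 0.128 and 0.168 on WD and 0.363, 0.332, 0.399, 0.293 and 0.372 on CDA-HFD. The diets did not overlap in either genotype, with log2 differences of 0.99 in WT and 1.48 in KO livers (exact permutation, adjusted p = 0.0408 for each). Reads of *Klkb1* may be shared with the overlapping *Gm45753*. The ratio of *Kng1* to *Hrg*, 96208 bp apart, was lower in KO than in WT livers on both diets, with log2 differences of -0.24 on WD and -0.42 on CDA-HFD (exact permutation, adjusted p = 0.0476 and 0.0408). On CDA-HFD it was 2.04, 1.91, 2.01, 2.05 and 2.47 in WT livers 1 to 5 and 1.74, 1.63, 1.60, 1.62 and 1.24 in KO livers 1 to 5, so every KO liver was below every WT liver. *F7* relative to its neighbour *F10* was lower on CDA-HFD than on WD among KO livers, with a log2 difference of -0.39 (exact permutation, adjusted p = 0.0408). The ratio of the fibrinogen chains *Fga* and *Fgg* lay between 1.54 and 1.92 in all 20 livers, and its mean differed by at most 0.054 on the log2 scale in any comparison, with no adjusted p under 0.05. *Fgb* relative to *Fgg* was higher on CDA-HFD than on WD in WT livers, with a log2 difference of 0.18 (exact permutation, adjusted p = 0.0476). The other ratios that passed were *Kng1* to *Hrg* by diet in WT livers, at a log2 difference of 0.19, and *C8a* to *C8g* by diet in KO livers, at 0.86 (exact permutation, adjusted p = 0.0476 for each).

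**Figure D4:**
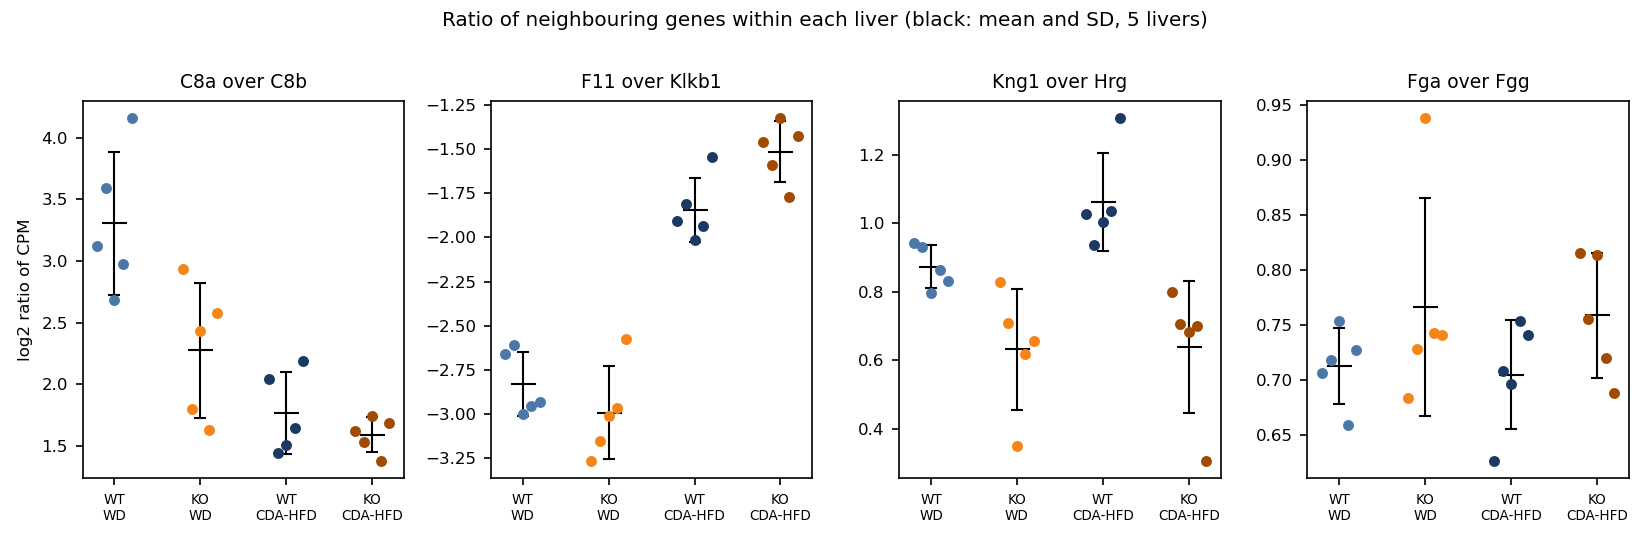
Log2 ratio of CPM between neighbouring members in each liver, with the mean and SD of 5 livers in black. The axis differs between panels. *C8a* over *C8b* is highest in WT livers on WD, *F11* over *Klkb1* separates the diets, *Kng1* over *Hrg* is lower in KO livers, and *Fga* over *Fgg* spans the narrowest axis.

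Other genes of the same pathways were grouped by the cells known to make them. Over all genes tested, 25.9% rose and 25.2% fell by diet in WT livers. For KO on CDA-HFD, 8.19% rose and 7.29% fell. Of 20 further liver-made genes, 12 fell and 2 rose by diet in WT livers, and 3 of the 19 tested rose in KO livers on CDA-HFD. *C2*, the partner of C4 in its convertase, rose in both, at a log2 fold change of 0.33 (SE 0.10, adjusted p = 0.0179) and 0.34 (SE 0.09, adjusted p = 0.0263). Of 13 myeloid genes, such as receptors and C1q chains, 10 rose by diet in WT livers and 7 fell in KO livers on CDA-HFD. The anaphylatoxin receptor *C3ar1* was at 13.9 ± 6.94 CPM and 76.3 ± 17.9 CPM in WT livers on WD and CDA-HFD (log2 fold change 2.44, SE 0.30, adjusted p = 7.34e-05), and at 26.4 ± 16.99 CPM in KO livers on CDA-HFD (log2 fold change -1.54, SE 0.34, adjusted p = 0.0184). *C5ar1* was at a log2 fold change of 2.07 (SE 0.26, adjusted p = 7.71e-05) and -1.65 (SE 0.29, adjusted p = 0.0120) in the same comparisons. Of 6 endothelial genes, 3 rose and 1 fell by diet in WT livers, and 2 fell in KO livers on CDA-HFD, among them the inhibitor of the tissue factor pathway, *Tfpi*. It was at a log2 fold change of 0.84 (SE 0.10, adjusted p = 4.78e-05) and -0.60 (SE 0.10, adjusted p = 0.0106) in these comparisons. Of 13 genes of other or mixed sources, 3 rose and 4 fell by diet in WT livers. Factor D (*Cfd*), known from fat cells, had 242 to 1221 reads in WT livers on WD and 0 or 1 read in those on CDA-HFD.

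Regulators known to act on hepatocyte genes were listed as well. Of 10 transcription factors and the IL-6 receptor *Il6ra*, 9 fell by diet in WT livers, against 25.2% of all genes. In KO livers on CDA-HFD 7 of the 11 rose, against 8.19% of all genes. *Foxa2* was at 31.0 ± 7.11 CPM in WT livers on WD and 10.6 ± 1.68 CPM on CDA-HFD (log2 fold change -1.56, SE 0.16, adjusted p = 2.46e-05), and at 32.4 ± 10.8 CPM in KO livers on CDA-HFD (log2 fold change 1.61, SE 0.23, adjusted p = 0.00733). *Hnf4a* was at a log2 fold change of -0.72 (SE 0.17, adjusted p = 0.00474) and 0.84 (SE 0.17, adjusted p = 0.0154). With scaling on hepatocyte markers, 2 fell (against 4.12% of all genes) and 2 rose (against 55.4%) by diet in WT livers. For KO on CDA-HFD 0 rose, against 0.00581% of all genes. That scaling also left 0 calls in the other pathway lists for KO on CDA-HFD, where 11 genes passed in all. Whether these genes bear on the members was not tested.

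Markers of other liver cells differed between the same groups. For the counts below, the shares over all genes were 25.9% higher and 25.2% lower by diet in WT livers. In KO livers on CDA-HFD 7.29% of all genes were lower. The summed level of 12 macrophage markers ranged from 530 to 1679 CPM in WT livers on WD, from 2399 to 4731 CPM in WT livers on CDA-HFD and from 862 to 2996 CPM in KO livers on CDA-HFD. Of these markers 8 rose and 1 fell by diet in WT livers, and 4 fell in KO livers on CDA-HFD. The 10 stellate markers summed to 728 to 1379, 2596 to 4300 and 1470 to 4474 CPM in the same groups, and 9 rose by diet. The 7 cholangiocyte markers summed to 34.0 to 164, 363 to 783 and 68.5 to 649 CPM, and 6 of 6 tested rose by diet. No stellate or cholangiocyte marker passed for KO on CDA-HFD with 5 KO livers. Of the 8 lymphocyte markers tested 5 rose by diet in WT livers, but they summed to at most 29.0 CPM in any liver, and *Trac* was at 0 in all 20. Endothelial markers summed to between 610 and 1027 CPM in all 20 livers, and 6 of 10 fell by diet in WT livers. KO liver 5 on CDA-HFD had the highest macrophage, stellate and cholangiocyte sums of its group, at 2996, 4474 and 649 CPM. The part of these cells in the results was not tested.

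**Figure D5:**
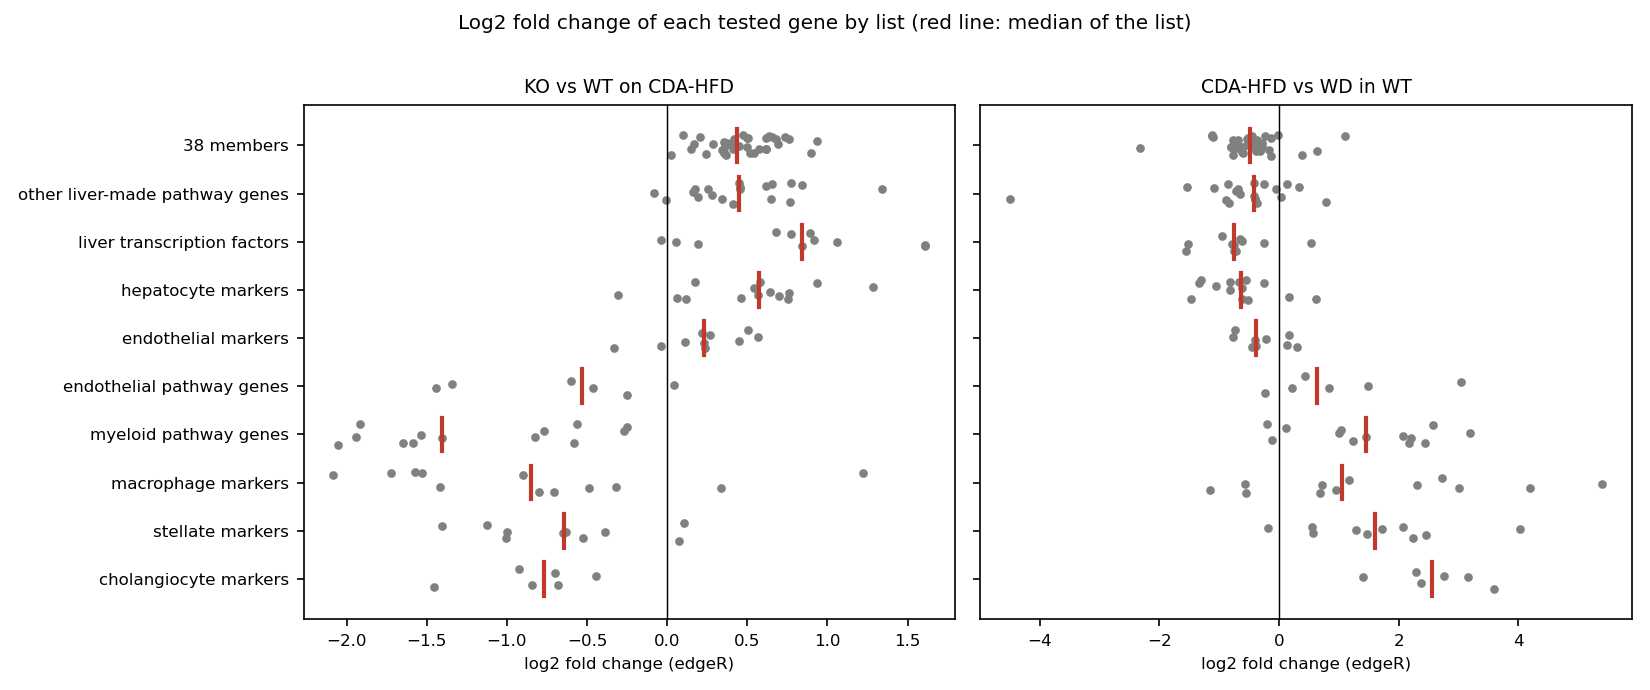
Log2 fold change of each tested gene by list, with the median of the list as a red line, for KO against WT on CDA-HFD (left) and CDA-HFD against WD in WT livers (right). Under TMM scaling the medians of members, other liver-made genes, transcription factors and hepatocyte markers are above 0 on the left and below 0 on the right, and those of myeloid, macrophage, stellate and cholangiocyte genes the reverse. Endothelial markers go with the members (0.23 on the left, -0.39 on the right), and endothelial pathway genes the other way (-0.53 and 0.64). Scaling on hepatocyte markers shifts all genes and turns the sign of the members' median in both panels.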

How the data were processed

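The data were RNA-seq read counts per gene from 20 mouse livers. The authors deposited raw counts, whole numbers with no normalization, in a table of 50559 gene symbols with 5 further tallies of unassigned reads, which were left out of all fits. Those tallies held 20.7% to 28.8% of all reads per liver as matching no gene and 18.0% to 28.7% as aligned to several places. Per the labels the genome build was mm10, and the aligner and counter are not given in the sources used here. The library kit differs between the methods text and the labels, so use of strand is unknown.

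Groups came from the labels. Counts were filtered with filterByExpr, scaled by TMM and tested with the quasi-likelihood F test of edgeR 4.0.16 in R 4.3.3, with Benjamini-Hochberg adjustment over all genes tested, each comparison on its 10 livers and the interaction on all 20. Livers were labelled as separate samples, and p-values measure the spread between them. Values per liver are CPM, and log2 CPM used a prior count of 2. RPKM divided CPM by the merged exon length in the GENCODE M21 annotation of GRCm38. Alternatives were DESeq2 1.42.0, RLE factors, library size only, other count filters, a replicate block, 1 fit of all 20 livers, leaving out each liver, and, added after seeing the data, scaling on 14 hepatocyte markers. Livers were not treated as paired by replicate number in the main fits. The correlation of residuals across genes lay between -0.367 and 0.349 for equal numbers. Unequal numbers were not compared, so these values cannot decide if the numbers pair the livers. Within each group no library was a copy of another, and pairs across groups were not compared. The edgeR fits were checked on simulated counts. Exact permutation tests used scipy 1.17.1, and figures matplotlib 3.10.9.

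The members, lists and tests were chosen with earlier results of these data known. Values in every liver are given for the 2 members with the smallest p in each of 5 comparisons and, in each of 9 roles, the member with the smallest p for KO on CDA-HFD. Other pathway genes were named by the smallest p of their list for KO on CDA-HFD and for diet in WT livers; *Hnf4a* was chosen after its values were seen. Some genes of these lists are not reported here. RefSeq start regions of *Masp1*, *C4b*, *Cfb*, *Cfi*, *Serping1*, *Kng1*, *Proc* and *Plg* were not used here.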

Additional observations from a re-analysis of the deposited data

Results flagged for a closer look

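Single livers stood far from the other 4 of their group for 5 of 152 combinations of member and group, where a level of 5% would flag 7.6 by chance. The measure is the gap to the nearest liver divided by the range of the group, with a critical value of 0.71. KO liver 5 on CDA-HFD accounted for 3 of them. It was at 209 CPM for *F12*, against 391 to 426 CPM in the other 4 (gap ratio 0.839). For *Vtn* it was at 720.4 CPM, against 1331 to 1482 CPM (0.801), and for *Serpinc1* at 559 CPM, against 1035 to 1182 CPM (0.764). In this liver the summed markers of macrophages, stellate cells and cholangiocytes were the highest of the group, which was not tested as a cause. *C8a* was high in WT liver 5 on WD, at 690.1 CPM against 437 to 499 CPM (0.757). *C6* was high in KO liver 2 on WD, at 331 CPM against 166 to 208 CPM (0.745).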

How the results depend on the processing

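For KO against WT on CDA-HFD, 3 members and 2664 genes passed in all. DESeq2 gave 12 and 4144, all 20 livers in 1 fit 16 and 4170, and scaling on hepatocyte markers, chosen after seeing the data, 0 and 11. Library size only gave 1709 genes. Leaving out 1 liver gave 0 to 24 members, all higher, and 709 to 7201 genes, where 2.05% to 19.6% of all genes were higher. Scaling on hepatocyte markers turned the median of the members (-0.083), *Cfb* (-0.15) and *F13b* (-0.022), with all genes at a median of -0.49.

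For diet in WT livers, 23 members fell and 2 rose, with a median of -0.48. Library size only gave 8 lower, 7 higher and -0.082, and scaling on hepatocyte markers 4, 8 and 0.13, with medians of all genes of 0.42 and 0.67. Leaving out 1 liver gave 15 to 25 lower, where 21.5% to 24.7% of all genes were lower. In KO livers 1 member rose, 2 fell and 2792 genes passed. DESeq2 gave 2 higher and 6 lower, and all 20 livers in 1 fit 2 higher and 4476 genes. Library size only gave 7 higher (18.4%, against 20.6%) with a median of 0.089. Scaling on hepatocyte markers gave 2 higher (5.26%, against 3.86%), 881 genes and a median of 0.061. Leaving out 1 liver gave 0 to 3 higher, 1 to 5 lower and 1568 to 2881 genes. In these fits 4.57% to 9.36% of all genes were higher and 4.8% to 8.37% lower.

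For KO on WD, 12 genes passed, and 164 with DESeq2, 38 with no filter, 26 with 1 fit of all livers and 1 to 33 without 1 liver. For the interaction, 99 genes passed, and 434 with DESeq2, 52 with no filter, 44 with library size only, 1 with hepatocyte markers and 35 to 2138 without 1 liver, with 0 to 4 members. The median of the members turned to -0.044 with hepatocyte markers. No member passed on WD under any of these settings.

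Whether replicate numbers pair the livers is not known. With these numbers as a block, 8 members rose for KO on CDA-HFD (21.1%, against 7.02% of all genes). In that setting 2 genes passed for KO on WD and 63 for the interaction. The differences in ratio that passed kept their sign when any 1 liver was left out. The cause of these shifts was not tested. Each member had at least 269 reads in every liver.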
